A study of Mus musculus with 6 samples.

Results

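The genes described here are those of the BCL2 family that decide between survival and death at the mitochondrion. They were chosen by symbol from a fixed list of 10 genes: the pro-survival genes *Bcl2*, *Bcl2l1* and *Mcl1*, the effectors *Bax* and *Bak1*, and the BH3-only genes *Bad*, *Bid*, *Bbc3*, *Pmaip1* and *Bcl2l11*. Of these 10, 8 were among the 13535 genes measured, and *Bcl2* and *Pmaip1* are not analysed here. The rule used gene symbols only.

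BCL2 family proteins set whether the outer mitochondrial membrane is opened, the step that commits a cell to intrinsic apoptosis. Pro-survival proteins such as BCL-XL (encoded by *Bcl2l1*) and MCL1 hold the effectors BAX and BAK in check, and BH3-only proteins relay stress signals by occupying the pro-survival proteins or by activating the effectors directly, after which cytochrome c is released and caspases are activated. In beta-cells this pathway is known from cytokine, endoplasmic reticulum and glucolipid stress, and much of its control is post-translational, which RNA does not report.

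RNA was sequenced from beta-cells of wild-type (WT) male C57BL/6JRj mice aged 12 weeks. Sorted endocrine cells were reaggregated for 5 days in RPMI with fetal bovine serum, either as alpha-, beta- and delta-cells together (pseudo-islets) or as beta-cells alone (pseudo-beta), and beta-cells were then sorted again by surface markers after exclusion of dead, blood and endothelial cells. Each of 3 experiments, numbered 35, 36 and 37, gave 1 library of either kind, so each group had 3 libraries. The comparison addresses whether the presence of alpha- and delta-cells altered the level of each gene in beta-cells. Neither group carried an added agent, and whether islets of several mice were pooled in an experiment is not given in the sources used here. Because dead cells were gated out and the clusters were analysed only at day 5, the libraries describe the cells that had survived to that point.

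Values are normalized counts, which summed to 18637128 to 19635287 per library in pseudo-islets and to 17994346 to 18380415 in pseudo-beta. All 10 beta-cell markers listed were measured, with summed levels of 7220070 to 8337440 normalized counts in pseudo-islets and 6961550 to 7704910 in pseudo-beta (exact two-sided permutation p = 0.2, and 0.1 is the smallest p that 3 against 3 allows). Markers of other islet cells differed without overlap. The alpha-cell markers measured (6 of 12) summed to 11392 to 13886 in pseudo-islets and 7742 to 9173 in pseudo-beta, and the delta-cell markers (3 of 8) to 616 to 812 against 430 to 528 (exact p = 0.1 for both). *Gcg* was listed at 0 in 1 pseudo-beta library and at most 36.1 in the others, against 941 to 2094 in pseudo-islets, and *Sst* was listed at 0 in 2 pseudo-beta libraries and at 4.74 in the other, against 146 to 210. Immune markers (2 of 9, nearly all of it *C1qa*) summed to 1656 to 2675 and 988 to 1416 (exact p = 0.1). PP-cell markers (3 of 4) summed to 5577, 741 and 2518 in the pseudo-islet libraries of experiments 35, 36 and 37 and to 2548, 438 and 1098 in the pseudo-beta libraries. They were higher in pseudo-islets in each experiment, although the groups overlapped (exact p = 0.5, a test that ignores the pairing), and *Ppy* and *Pyy* were called with the experiment as a block in limma (adjusted p = 0.00267 and 0.0259). *C1qa* was called only with that block (adjusted p = 0.00305, against 0.379 without it). Ductal (3 of 5) and endothelial markers (2 of 8) overlapped between the groups (exact p = 0.9 and 0.2), and no acinar or stromal marker (0 of 8 each) was analysed. Pseudo-beta clusters were built without alpha- and delta-cells, so the clusters differed in those cell types by design. The libraries of both groups, however, are of beta-cells sorted again, and the authors reported by qRT-PCR that this sort depleted alpha- and delta-cells. The source of the *Gcg* and *Sst* left in the pseudo-islet libraries was not tested. For these and the other cell types, fewer cells and less RNA per cell cannot be told apart in these bulk libraries.

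No BCL2 family member passed the test between beta-cells of pseudo-islets and pseudo-beta. With limma on log2(normalized count + 1), a call being a Benjamini-Hochberg adjusted p under 0.05 over all genes, 0 of the 8 members were called, against 0.0591% of all genes, and 0 were called with the experiment as a block, which compares libraries within each experiment, against 0.539%. At an unadjusted limma p under 0.05 there were also 0 of 8 in either fit, where all genes gave 5.4% without the block and 11.9% with it. The lowest adjusted p among the members was 0.969 without the block (*Bid*) and 0.456 with it (*Bax*). All 8 fitted log2 differences, written throughout as pseudo-islets over pseudo-beta, were positive, with a median of 0.16 against 0.01 over all genes, of which 51.4% were positive. Those of *Bad* and *Bak1* turned negative when libraries were scaled without their 10 most abundant genes. That scaling also lowered both medians, to 0.10 for the members and -0.05 over all genes.

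Per length, *Bax* was the most abundant member by a wide margin. Its level was 1446 ± 91.8 normalized counts per kilobase of annotated exon in pseudo-islets and 1274 ± 85.7 in pseudo-beta (SD, n = 3 libraries each), higher than 96.3% of all genes measured. *Bad* came next at 249 ± 11.5 and 240.1 ± 6.0 per kilobase, and *Bcl2l1* followed at 185 ± 14.1 and 171 ± 51.5. The ranges of these 3 genes over the 6 libraries (1175 to 1508, 235 to 260 and 114 to 215 per kilobase) did not overlap, so this order held in every library. *Mcl1* ranged from 57.2 to 142 per kilobase and *Bid* from 58.7 to 96.2. *Bcl2l1* and *Mcl1* overlapped, as did *Mcl1* and *Bid*, and these neighbours are not ordered beyond their spread. The remaining members formed a low group that did not reach the others: *Bak1* at 9.28 to 31.7, *Bcl2l11* at 10.8 to 19.3 and *Bbc3* at 4.69 to 17.6 per kilobase, with overlapping ranges, higher than 24.4%, 21.1% and 16.1% of genes. Within the effector pair *Bax* exceeded *Bak1* per kilobase in all 6 libraries, and among the BH3-only genes measured *Bad* and *Bid* exceeded *Bbc3* and *Bcl2l11*.

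**Figure D1:**
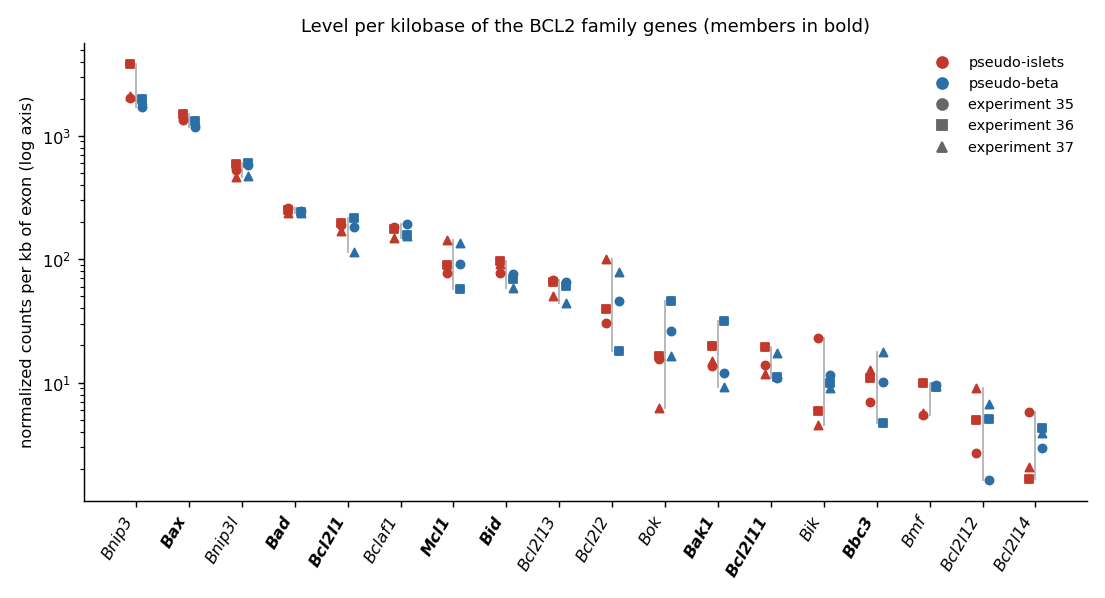
Level of each BCL2 family gene in normalized counts per kilobase of exon (log axis), 1 point per library, with pseudo-islets in red, pseudo-beta in blue, the marker shape for the experiment and a grey line for the range. Members are in bold; *Bax* lies at 1175 to 1508, apart from *Bad* at 235 to 260, while *Bak1*, *Bcl2l11* and *Bbc3* share the range under 32.

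Neither pro-survival gene measured differed between the groups beyond the spread of its libraries. *Bcl2l1* (chromosome 2, 152780668 to 152831728, minus strand, GRCm38) encodes BCL-XL, a guard of BAX and BAK on mitochondria. In the order of experiments 35, 36 and 37, which all values below follow, it stood at 865, 899.9 and 775 normalized counts in the pseudo-islet libraries and at 843, 986 and 524 in the pseudo-beta libraries. The pseudo-beta library of experiment 37 was the lowest of the 6 and that of experiment 36 the highest, so the pseudo-beta values enclosed all of the pseudo-islet values. The means were 847 ± 64.6 and 784 ± 236 (SD, n = 3), and the log2 difference was 0.16 with a standard error of 0.23 (95% interval -0.35 to 0.66, adjusted p = 0.998). With the experiment as a block the interval narrowed to -0.17 to 0.48, which lies within a 1.5-fold change in either direction. Without the pseudo-beta library of experiment 37 the difference turned to -0.11.

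*Mcl1* (chromosome 3, 95658788 to 95663176, plus strand) encodes a short-lived guard whose RNA and protein turn over quickly. Its values were 266, 308 and 486 normalized counts in the pseudo-islet libraries and 315, 196 and 460 in the pseudo-beta libraries. Experiment 37 gave the highest value in both groups, and the groups overlapped over most of their range. The means of 353 ± 117 and 323 ± 132 differed by 0.16 on the log2 scale (standard error 0.33, 95% interval -0.57 to 0.89, adjusted p = 0.998). The interval with the block, -0.27 to 0.60, still admitted a change of 1.5-fold upward. Without the pseudo-beta library of experiment 36 or the pseudo-islet library of experiment 37 the difference turned to -0.16 and -0.09.

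The balance of both pro-survival genes also overlapped between the groups. In normalized counts, *Bcl2l1* was 3.25, 2.92 and 1.59 times *Mcl1* in the pseudo-islet libraries and 2.68, 5.04 and 1.14 times in the pseudo-beta libraries. The ratio was lowest in experiment 37 in both groups. It is a ratio between genes of unequal length, and serves only to compare libraries.

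Of the effectors, *Bax* was higher in every pseudo-islet library than in any pseudo-beta library, by a small margin that did not pass the test. *Bax* (chromosome 7, 45461697 to 45466898, minus strand) encodes the effector that moves from the cytosol to mitochondria and forms pores there. It measured 2113, 2376 and 2349 normalized counts in the pseudo-islet libraries and 1852, 2083 and 2088 in the pseudo-beta libraries. The lowest pseudo-islet value lay just above the highest pseudo-beta value, so the groups did not overlap, and within experiments the log2 difference was nearly the same, at 0.19, 0.19 and 0.17. The means were 2280 ± 145 and 2007 ± 135 (SD, n = 3), a ratio of 1.14 with a 95% interval of 0.93 to 1.39 (log2 difference 0.18, standard error 0.13, adjusted p = 0.989). With the block the standard error fell to 0.09 and the interval to -0.01 to 0.38 (adjusted p = 0.456), so either fit bounds the change within 1.5-fold. Groups did not overlap for 2 of the 8 members (*Bax* and *Bid*, both higher in pseudo-islets), against 10.8% of all genes, 5.63% higher and 5.13% lower. The summed alpha-, delta- and immune-cell markers given above separated the groups in the same direction, the PP-cell markers were higher in pseudo-islets within each experiment, and the part of these markers in the difference was not tested. A second annotated gene, *Gm45808*, overlaps *Bax* on the same strand, so its reads could be counted with either.

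The promoter of *Bax* is shown because this gene gave the most uniform difference of the members, and that of *Bid* because it is the other member whose groups did not overlap. Both are the 250 bases before the RefSeq transcription start (GRCm38.p6), read 5′ to 3′ on the minus strand, which both genes use. Capitals mark the E-box CACGTG, bound by basic helix-loop-helix factors, and the GC box GGGCGG, bound by SP1-type factors, on either strand.
*Bax*, chr7:45466899-45467148: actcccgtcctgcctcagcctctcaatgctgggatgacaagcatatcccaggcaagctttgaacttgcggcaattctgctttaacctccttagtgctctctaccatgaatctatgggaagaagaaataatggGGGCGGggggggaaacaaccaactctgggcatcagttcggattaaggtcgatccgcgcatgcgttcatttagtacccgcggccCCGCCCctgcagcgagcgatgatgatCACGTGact
*Bid*, chr6:120916825-120917074: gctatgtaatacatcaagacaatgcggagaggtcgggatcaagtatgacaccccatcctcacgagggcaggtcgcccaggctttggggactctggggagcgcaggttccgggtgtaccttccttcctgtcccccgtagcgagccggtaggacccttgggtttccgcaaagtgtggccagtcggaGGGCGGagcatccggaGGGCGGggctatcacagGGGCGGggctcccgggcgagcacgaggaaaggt
The *Bax* window holds 1 E-box, starting 9 bases before the transcription start, and 2 GC boxes. The *Bid* window holds 3 GC boxes, at 33, 50 and 66 bases before the start, and no E-box. Among 32851 RefSeq promoter windows of that length an E-box occurs in 6.02% and a GC box in 32.7%. The cAMP response element core TGACG, found in 17.8% of windows, is in neither. A p53 half-site (RRRCWWGYYY, with R for A or G, W for A or T and Y for C or T) is found in 7.13% of windows. It occurs 1 time in the *Bax* window, where it is not capitalized, and 0 times in the *Bid* window. A match describes letters, not a site in use.

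*Bak1* (chromosome 17, 27019810 to 27029009, minus strand) encodes the effector that resides on mitochondria. Its values were low and scattered, at 32.8, 47.4 and 35.9 normalized counts in the pseudo-islet libraries and 28.8, 76.3 and 22.3 in the pseudo-beta libraries. The 3 pseudo-islet values lay inside the range of the pseudo-beta values, which the library of experiment 36 stretched upward. The means of 38.7 ± 7.71 and 42.5 ± 29.5 were lower in pseudo-islets while the mean log2 difference was slightly positive, 0.06 (standard error 0.50, 95% interval -1.06 to 1.17, adjusted p = 0.998). At this level and spread a change of 2-fold in either direction lay inside the interval. Leaving out the pseudo-islet library of experiment 36, or the pseudo-beta library of experiment 35 or 37, turned the difference to -0.10, -0.11 and -0.29. *Ggnbp1* overlaps *Bak1* on the opposite strand, and whether the counting used strand is not given in the sources used here.

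**Figure D2:**
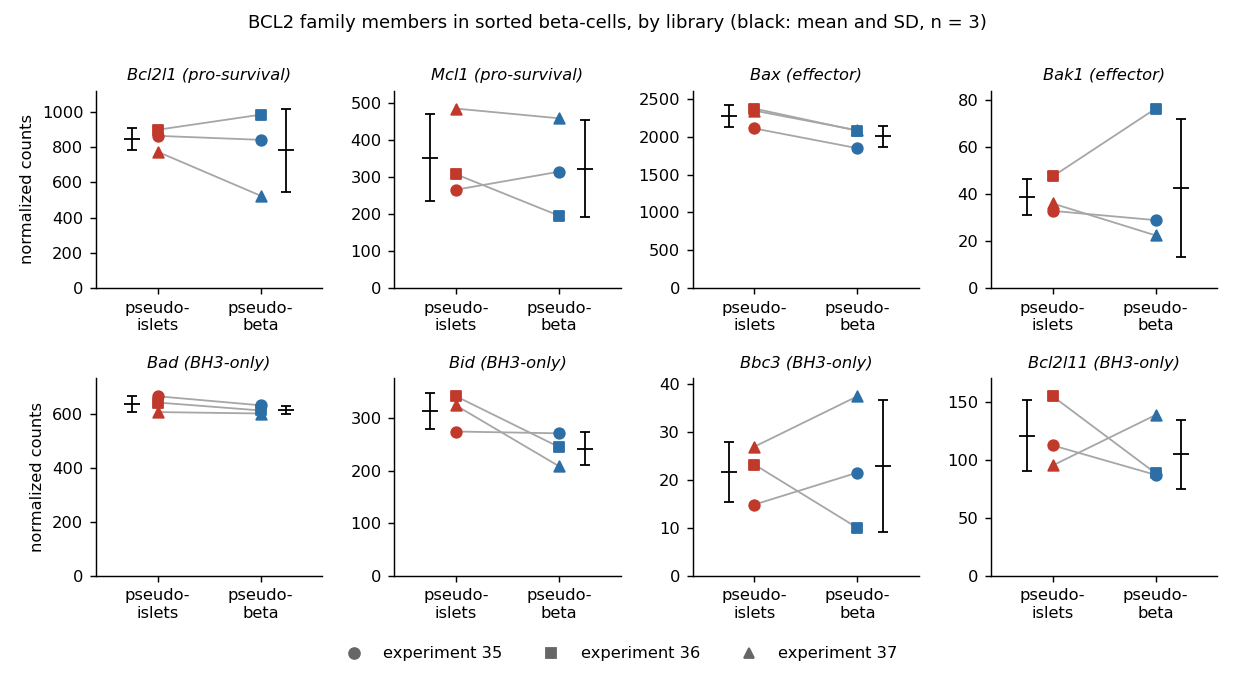
Normalized counts of the 8 members in beta-cells of pseudo-islets (red) and pseudo-beta (blue), with grey lines joining libraries of 1 experiment and black bars for the mean and SD (n = 3). *Bax* (1852 to 2376) and *Bid* (208 to 342) separate the groups by library; the lines of *Bcl2l1*, *Mcl1*, *Bak1*, *Bbc3* and *Bcl2l11* cross or diverge.

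None of the 4 BH3-only members measured passed the test, and the standard error of their log2 differences ran from 0.15 for *Bad* to 0.58 for *Bbc3*. *Bad* (chromosome 19, 6941861 to 6951899, plus strand) encodes a sensitizer that survival kinases silence by phosphorylation and that also associates with glucokinase in beta-cells. It measured 664, 641 and 606 normalized counts in the pseudo-islet libraries and 631, 612 and 600.3 in the pseudo-beta libraries. All 6 libraries lay close together, the groups overlapped, and each pseudo-islet library was slightly above its pseudo-beta partner, by 0.07, 0.07 and 0.01 on the log2 scale. The fitted difference of 0.05 had a standard error of 0.15 (95% interval -0.29 to 0.39, adjusted p = 0.998), so a change over 1.5-fold lay outside the interval in both directions. Scaling without the 10 most abundant genes moved it to -0.01.

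*Bid* (chromosome 6, 120891930 to 120916853, minus strand) encodes the BH3-only protein that caspase-8 cleaves, linking death receptors to mitochondria. Its values were 274, 342 and 324 normalized counts in the pseudo-islet libraries and 271, 245 and 208 in the pseudo-beta libraries. Every pseudo-islet value exceeded every pseudo-beta value, although in experiment 35 the libraries were almost equal. Within experiments the log2 difference was 0.02, 0.48 and 0.63. The means of 313 ± 34.8 and 241 ± 31.5 (SD, n = 3) gave a ratio of 1.3 (95% interval 0.94 to 1.79, log2 difference 0.38, standard error 0.21, adjusted p = 0.969), the largest of the 8 members. With the block the adjusted p was 0.473, and the interval of -0.04 to 0.80 was little narrower. *Bcl2l13* lies on the opposite strand and overlaps *Bid*. The alpha-, delta-, immune- and PP-cell marker sums were higher in pseudo-islets within each experiment. In experiment 35, where *Bid* was almost equal, they were 11963 against 7742, 812 against 528, 2337 against 988 and 5577 against 2548. Their part in the difference of *Bid* was not tested.

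*Bbc3* (chromosome 7, 16308393 to 16318205, plus strand) encodes PUMA, a potent BH3-only protein induced by p53 and by endoplasmic reticulum stress. It was the least abundant member, at 14.8, 23.1 and 26.8 normalized counts in the pseudo-islet libraries and 21.4, 9.95 and 37.4 in the pseudo-beta libraries. The pseudo-beta values enclosed those of pseudo-islets, and the direction changed between experiments (log2 differences of -0.51, 1.14 and -0.46). The fitted difference was 0.06 with a standard error of 0.58 (95% interval -1.24 to 1.35, adjusted p = 0.998). It turned to -0.01 and -0.42 without the pseudo-islet or the pseudo-beta library of experiment 36, and to -0.11 without the pseudo-islet library of experiment 37.

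*Bcl2l11* (chromosome 2, 128126038 to 128162547, plus strand) encodes BIM, which binds all pro-survival proteins and is under FOXO3 and CHOP control in other settings. Its levels were 112, 155 and 95.1 normalized counts in the pseudo-islet libraries and 86.9, 88.3 and 139 in the pseudo-beta libraries. It was higher in pseudo-islets in experiments 35 and 36 and lower in experiment 37, by 0.37, 0.80 and -0.54 on the log2 scale. The means of 121 ± 30.7 and 105 ± 29.5 overlapped (log2 difference 0.21, standard error 0.31, 95% interval -0.49 to 0.91, adjusted p = 0.998). With the block and without experiment 36 the difference was -0.09.

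Across experiments, 3 of the 8 members (*Bax*, *Bad* and *Bid*) were higher in pseudo-islets in all 3 experiments, against 18.0% of all genes, and 0 were lower in all 3. A shared direction in all 3 experiments, either way, was found in 33.1% of genes. The other 5 changed direction at least once.

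**Figure D3:**
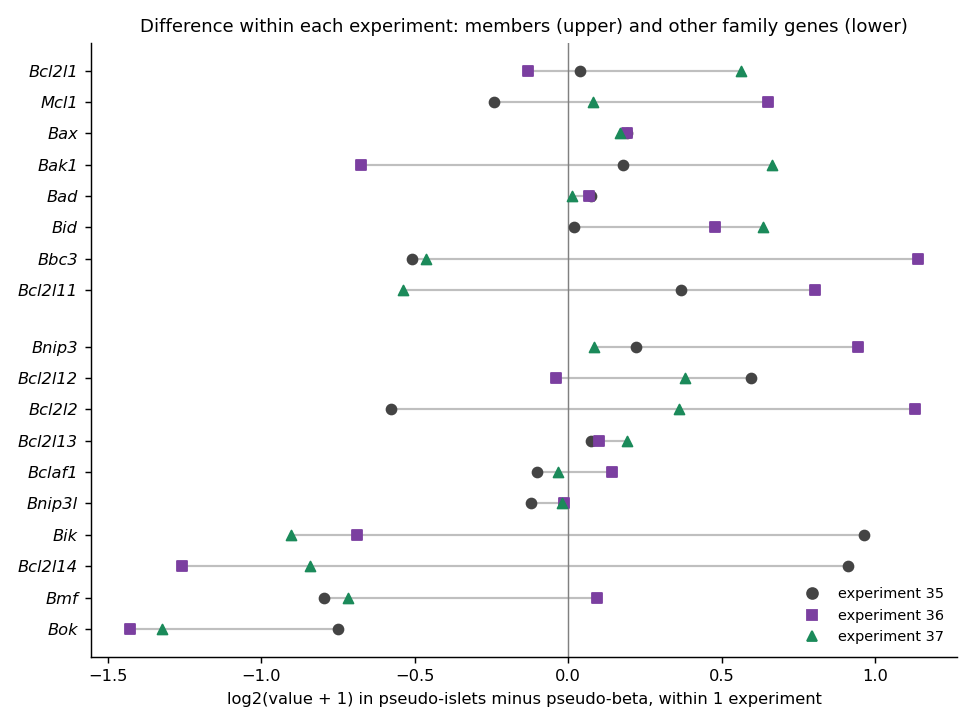
Difference in log2(normalized count + 1), pseudo-islets minus pseudo-beta, within each of the 3 experiments for the 8 members (upper) and the 10 other family genes (lower), with 1 marker per experiment and a grey line for the range. The markers of *Bax* coincide at 0.17 to 0.19 whereas those of *Bbc3* run from -0.51 to 1.14.

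Experiment 37 stood apart in both groups for many genes of the series, several members among them. Both libraries of experiment 37 lay above the other 4 for *Mcl1* and *Bbc3* and below them for *Bcl2l1* and *Bad*, which makes 4 of the 8 members outside the other libraries against 31.6% of all genes. The mean of both experiment 37 libraries was 1.74 times that of the other 4 for *Mcl1*, 1.85 times for *Bbc3*, 0.723 times for *Bcl2l1* and 0.947 times for *Bad*. *Jun* and *Btg2*, immediate-early genes of the stress and p53 lists described below, were 6.56 and 3.24 times as high in experiment 37. Their part in the shift of the members was not tested.

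The intervals show which sizes of difference remained compatible with each measurement, without adjustment for the number of genes. Without the block, the 95% interval of 2 of the 8 members (*Bax* and *Bad*) lay within a 1.5-fold change in both directions, against 27.3% of all genes, and with the block 3 did (*Bcl2l1* in addition), against 42.0%. For *Bid* the upper bound was 1.79-fold without the block and 1.74-fold with it, and the lower bound 0.94-fold and 0.97-fold. For *Mcl1*, the bounds with the block were 0.83-fold and 1.51-fold. *Bak1* and *Bbc3* were the least certain, with upper bounds over 2-fold in either fit.

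**Figure D4:**
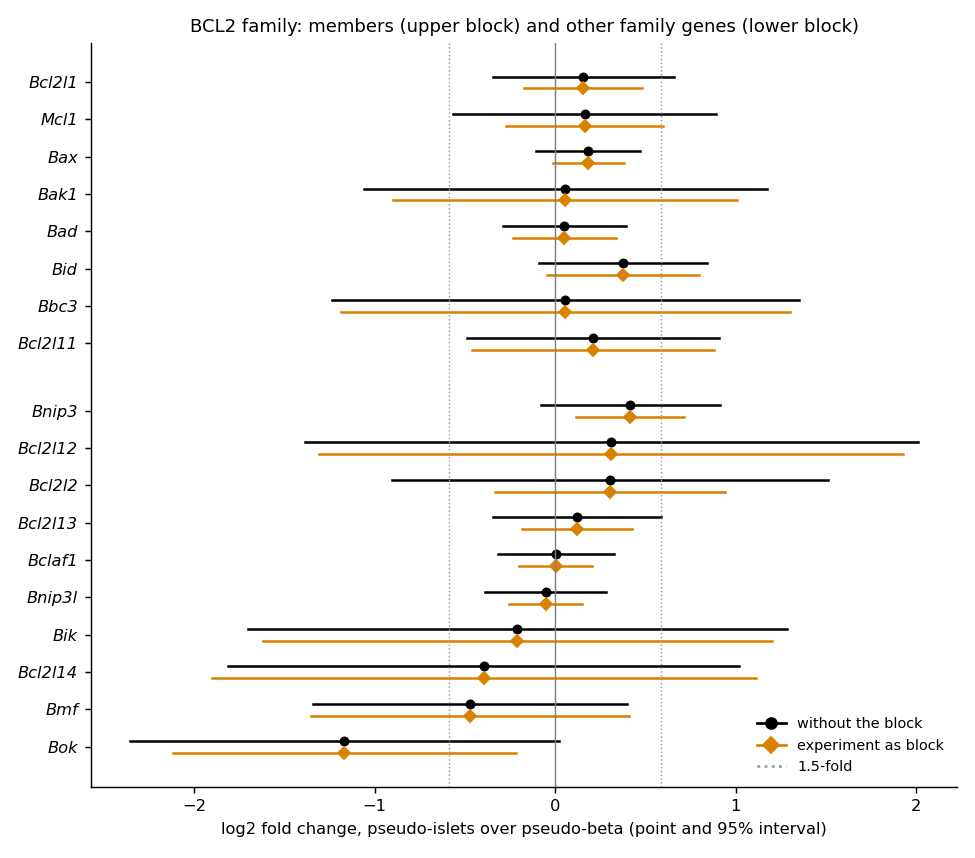
Fitted log2 fold change (pseudo-islets over pseudo-beta) with its 95% interval for the 8 members (upper) and 10 other family genes (lower), from limma without the block (black) and with the experiment as a block (orange); dotted lines mark 1.5-fold. Intervals of *Bax* and *Bad* stay between the dotted lines in both fits, and those of *Bnip3* and *Bok* leave 0 only with the block.

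No other gene of the family was called either. Of 16 listed, 10 were measured, 0 were called in either fit, 5 log2 differences were positive and 5 negative, and the median was -0.02. These 10 include *Bclaf1*, which encodes a BCL2-associated transcription factor and is not itself a family member. *Bnip3* and *Bnip3l*, mitophagy receptors with a BH3-like segment, were the most abundant of these: *Bnip3*, at 1724 to 3852 normalized counts per kilobase, lay above every member, and *Bnip3l*, at 465 to 599, between *Bax* and *Bad*. *Bnip3* measured 4552, 8726 and 4722 normalized counts in the pseudo-islet libraries and 3905, 4536 and 4459 in the pseudo-beta libraries. The groups did not overlap, but the pseudo-islet library of experiment 36 stood far above the rest, and the log2 difference of 0.42 (standard error 0.22) had an adjusted p of 0.967 without the block and 0.259 with it. Without the experiment 36 libraries the difference with the block was 0.15.

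*Bok*, which encodes an effector-like protein that does not depend on BAX or BAK, was the other family gene with an unadjusted p under 0.05 with the block. It measured 28.4, 30.5 and 11.5 normalized counts in the pseudo-islet libraries and 48.4, 83.6 and 30.4 in the pseudo-beta libraries. Each pseudo-islet library was below its partner, yet the groups met at 30.5 and 30.4. The log2 difference was -1.17 with a standard error of 0.53 and an adjusted p of 0.921 without the block and 0.319 with it. At an unadjusted p under 0.05 there were thus 2 of the 10 other family genes with the block, against 11.9% of all genes, and 0 of 10 without it, against 5.4%.

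The remaining genes of this list did not pass either threshold. *Bcl2l2* (BCL-W, pro-survival) ran from 136 to 448 normalized counts in pseudo-islets and 80.0 to 348 in pseudo-beta, with experiment 37 highest in both groups at 2.67 times the mean of the other libraries. *Bmf*, a BH3-only gene, measured 28.5, 52.0 and 29.9 against 50.3, 48.7 and 49.8, and its log2 difference was -0.47 (adjusted p = 0.992). *Bnip3l*, *Bcl2l13* and *Bclaf1* had differences of -0.05, 0.12 and 0.00, and their 95% intervals lay within 1.5-fold. *Bik*, *Bcl2l12* and *Bcl2l14* were at most 36.9 normalized counts in any library, with differences of -0.21, 0.31 and -0.39 and standard errors of 0.64 or more. *Gm20521* overlaps *Bcl2l2*, and *Irf3* overlaps *Bcl2l12*.

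The machinery around the BCL2 family was examined through 6 lists holding 79 distinct genes, of which 74 were measured. In both fits 0 of the 74 were called. At an unadjusted p under 0.05 there were 8 without the block (5 higher and 3 lower in pseudo-islets) and 9 with it (6 higher and 3 lower), against 5.4% of all genes without the block (2.73% higher, 2.67% lower) and 11.9% with it (6.69% higher, 5.22% lower). The median log2 difference over the 74 genes was 0.05.

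Downstream of the mitochondrion, 13 of 14 apoptosome and caspase genes were measured, and their median log2 difference was 0.03. *Casp8*, the initiator caspase that cleaves BID, measured 267, 343 and 264 normalized counts in the pseudo-islet libraries and 204, 236 and 137 in the pseudo-beta libraries. The groups did not overlap, in the same direction as *Bid*. Its log2 difference was 0.62 with a standard error of 0.26 and an adjusted p of 0.901 without the block and 0.250 with it. *Cycs*, cytochrome c, measured 3167, 3266 and 3971 against 2614, 2518 and 3635, higher in pseudo-islets in each experiment (log2 difference 0.26, adjusted p = 0.276 with the block). The gene has processed pseudogenes that can share its reads. *Apaf1*, the apoptosome scaffold, and *Casp2* gave the highest and lowest differences of the list, 0.90 and -0.39 (adjusted p = 0.973 and 0.998).

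All 8 inhibitor of apoptosis (IAP) genes and their antagonists were measured, with a median of -0.01 and 0 at an unadjusted p under 0.05 in either fit. *Birc5* (survivin, a mitotic gene) was listed at 0 in 2 pseudo-beta libraries and 12.6 in the other, against 1.47, 15.3 and 20.6 in pseudo-islets, and *Septin4* had the lowest difference, -0.29. Of the regulators of BCL2 proteins, all 15 were measured, with a median of 0.08 and again 0 at an unadjusted p under 0.05. Their differences ran from -0.68 for *Pim1*, a kinase that phosphorylates BAD, to 0.30 for *Bag3*, a co-chaperone.

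The p53 pathway, which induces *Bbc3* and *Bax*, had 17 of 18 genes measured, a median of 0.06 and 3 genes at an unadjusted p under 0.05 in both fits, all higher in pseudo-islets (of all genes, 2.73% were so without the block and 6.69% with it). *Cdkn1a*, the p21 cell cycle inhibitor, measured 1530, 1257 and 1455 normalized counts in the pseudo-islet libraries and 1213, 1103 and 1029 in the pseudo-beta libraries, without overlap (log2 difference 0.34, standard error 0.15, adjusted p = 0.917 without the block and 0.257 with it). *Ccng1*, cyclin G1, measured 2845, 2939 and 2257 against 2275, 2193 and 1681, and its log2 difference of 0.39 had the lowest adjusted p of all 74 genes with the block, 0.0979. *Pidd1*, the scaffold of a caspase-2 complex, measured 14.5, 26.1 and 10.6 normalized counts in the pseudo-islet libraries and 0, 0.760 and 0 in the pseudo-beta libraries (adjusted p = 0.486 without the block and 0.168 with it). The values of *Pidd1* separated the groups at a low level, and its fitted difference moved from 6.29 to 1.36 on the log2 scale when the pseudocount went from 0.1 to 10. *Perp* had the lowest difference of the list, -0.41.

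Stress response genes upstream of the BH3-only genes (10 of 11 measured) had a median of -0.09. *Ddit3*, which encodes CHOP, was the only one at an unadjusted p under 0.05 in either fit. It measured 979, 1093 and 903 normalized counts in the pseudo-islet libraries and 1373, 1324 and 1246 in the pseudo-beta libraries, lower in every pseudo-islet library (log2 difference -0.41, standard error 0.15, adjusted p = 0.862 without the block and 0.168 with it). *Bbc3* and *Bcl2l11*, both described elsewhere as CHOP targets, overlapped between the groups as given above. *Foxo3* had the lowest difference of this list, -0.45, and *Chac1* the highest, 0.26. *Mars* overlaps *Ddit3* on the opposite strand.

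In the death receptor pathway, 12 of 14 genes were measured, with a median of 0.09, and 4 reached an unadjusted p under 0.05 in both fits, against 5.4% of all genes without the block and 11.9% with it. Besides *Casp8*, which this list shares, *Tnfaip3*, the NF-kappaB inhibitor A20, measured 29.3, 45.9 and 31.7 normalized counts in the pseudo-islet libraries and 9.16, 6.36 and 20.3 in the pseudo-beta libraries (log2 difference 1.62, adjusted p = 0.852 without the block and 0.308 with it). *Mlkl*, the executor of necroptosis, measured 23.8, 15.6 and 11.7 against 43.5, 80.2 and 34.8 (log2 difference -1.54, adjusted p = 0.781 and 0.240). *Nfkb1* measured 271, 384 and 540 against 487, 662 and 643 (log2 difference -0.62, adjusted p = 0.901 and 0.157). *Tnfaip3* and *Mlkl* did not overlap between the groups and *Nfkb1* did, and none of the 4 genes was called.

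**Figure D5:**
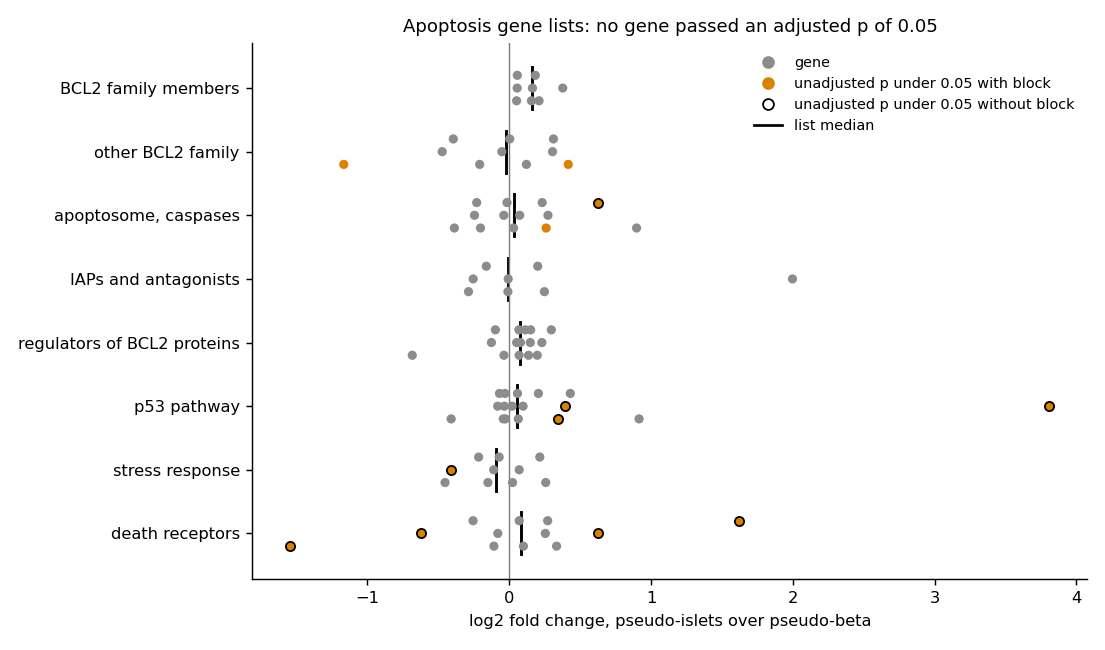
Fitted log2 fold change (pseudo-islets over pseudo-beta) of each measured gene in the 8 members, 10 other family genes and 6 pathway lists, with black ticks for list medians, orange for an unadjusted p under 0.05 with the block and black rings for the same without it. No gene passed an adjusted p of 0.05, list medians lie between -0.09 and 0.16, and the point at 3.81 is *Pidd1*, at or near 0 in pseudo-beta.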

How the data were processed

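RNA of sorted beta-cells (5 ng per library, Ovation Solo kit, ribosomal depletion) was measured in 3 pseudo-islet and 3 pseudo-beta libraries. The authors aligned reads to GRCm38 with STAR 2.7.6a, quantified genes with RSEM 1.3.1 and normalized with DESeq2 1.26.0. The deposited signal is normalized counts with decimals, from which reads were not recovered, so library depth is unknown. The strand setting, annotation release and low-value filter are not given in the sources used here. The deposited table also holds the authors' mean signal, log2 fold change with its error, a test statistic as a score and p-value columns, which are their own results and were not used.

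Here, limma 3.58.1 (R 4.3.3) was fitted to log2(normalized count + 1) for all 13535 genes with a prior variance that follows mean level and Benjamini-Hochberg adjustment over all genes, without a block. Fits with and without a block were also run on simulated counts with the same dispersion for every gene, a setting simpler than these data. A fold change on the log2(normalized count + 1) scale understates the change of low genes. Without a block, p-values rest on the spread between 3 libraries a group. With the block described next, they rest on the spread of the differences within experiments. Both also draw on the prior variance, which comes from all genes. Deviations from the group means correlated at 0.119, 0.121 and 0.325 within experiments 35, 36 and 37 and at -0.203 to 0.0922 between them. All 3 same-experiment values exceed the minimum of 0.1, so the libraries were taken as paired, and a second fit had the experiment as its block. Coordinates, overlaps and exon lengths (merged exons) are GENCODE M21, promoters RefSeq. Single values were compared by an exact permutation test. No libraries held identical values. Named genes are all measured members and other family genes and, from each pathway list, those with an unadjusted p under 0.05 in either fit and the highest and lowest difference. Marker genes, *Jun* and *Btg2* were named after their values were seen. Members and lists were chosen with earlier results of these data known. Alternatives were another pseudocount, prior variance, scaling or low-value filter, and leaving out libraries or experiments.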

Additional observations from a re-analysis of the deposited data

How the results depend on the processing

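The counts of called members, other family genes and pathway genes were 0 in every alternative run, where the adjusted p of the members ran from 0.397 to 1.00. The count over all genes was 8 and moved to 73 with the replicate block, 2 with 1 prior variance for all genes, 1 with a pseudocount of 0.1, and 2 both with scaling without the 10 most abundant genes and with quantile normalization. Chosen after seeing the data, the block with 1 prior variance gave 0 (1136 genes at an unadjusted limma p under 0.05), and the block with that scaling gave 82. Leaving out 1 library gave 0 to 13, and leaving out 1 experiment with the block gave 28, 73 and 45 (without 35, 36 and 37). The cause of these shifts was not tested. The block changed no call of a BCL2 family or pathway gene. Of the cell type markers, *C1qa*, *Ppy*, *Pyy* and *Ttr* (on the alpha-cell list) were called only with it (adjusted p = 0.00305, 0.00267, 0.0259 and 0.0303).

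*Bax* and *Bid* stayed positive in every alternative run. Scaling without the 10 most abundant genes, with or without the block, turned *Bad* to -0.0068, *Bak1* to -0.0011 and *Bclaf1* to -0.055, and quantile normalization turned *Bclaf1* to -0.081. Leaving out 1 library gave log2 differences of -0.29 to 0.57 for *Bak1*, -0.11 to 0.35 for *Bcl2l1*, -0.16 to 0.46 for *Mcl1*, -0.42 to 0.49 for *Bbc3*, -0.27 to 0.78 for *Bcl2l2*, -0.063 to 0.11 for *Bclaf1*, -0.89 to 0.22 for *Bik*, -0.16 to 0.037 for *Bnip3l*, -0.22 to 0.70 for *Bcl2l12*, -0.048 to 0.26 for *Bcl2l13* and -0.61 to 0.026 for *Septin4*. Leaving out 1 experiment with the block gave -0.25 to 0.42 for *Bak1* (-0.0061 without experiment 35), -0.047 to 0.30 for *Bcl2l1*, -0.081 to 0.37 for *Mcl1*, -0.48 to 0.34 for *Bbc3*, -0.086 to 0.58 for *Bcl2l11*, -0.11 to 0.75 for *Bcl2l2*, -1.05 to 0.036 for *Bcl2l14*, -0.067 to 0.055 for *Bclaf1* and -0.80 to 0.14 for *Bik* (0.030 without experiment 36). With at least 10 normalized counts required in every library, *Bbc3* was not among the genes tested. With 3 libraries a group, *Bak1* and *Bbc3* remain the least certain members, since their intervals span 2-fold.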
